A study of Mus musculus with 4 samples.

Results

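The Leydig stem and progenitor markers described here are 8 genes, Nes, Tcf21, Thy1, Ly6a, Ly6c1, Ly6e, Cd34 and Eng. They were read from the deposited counts by matching their Ensembl identifiers to symbols in the GRCm38 annotation. All 8 were among the 55812 features of the table and among the 14701 genes with enough reads to be tested. RNA was sequenced from primary Leydig cells of 6-month-old mice, the interstitial cells of the testis that make testosterone, after a small interfering RNA against Trps1 (Trps1 siRNA, samples 1 and 2) or a control one (Negative siRNA, samples 1 and 2). The labels give no strain, dose or time after transfection. Whether samples 1 and 2 are separate cultures or animals is likewise not labelled, and the p-values below rest on a spread between samples that may be technical. The study asked what changes when Trps1, a zinc finger protein that binds GATA sites and represses transcription, is lowered in these cells. It was lowered only in part. Trps1 had 23.5 and 30.1 CPM (counts divided by TMM-scaled library size) with Trps1 siRNA, against 38.1 and 42.2 CPM with Negative siRNA, a log2 fold change of -0.58 ± 0.10 (standard error, edgeR adjusted p = 3.51e-04).

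Adult Leydig cells arise from spindle-shaped mesenchymal stem cells that lie beside blood vessels and tubules and divide little until they enter the lineage. In mice these cells have been traced with Nes, which encodes the intermediate filament nestin, and with Tcf21, a basic helix-loop-helix transcription factor of mesenchymal progenitors. Neither is a surface protein, whereas the remaining 6 genes encode proteins of the cell surface. Thy1 and the products of Ly6a (the stem cell antigen Sca-1), Ly6c1 and Ly6e are small proteins held by a lipid anchor, Cd34 is a sialomucin of blood-forming and vascular progenitors, and Eng (endoglin) is a co-receptor for ligands of the TGF-beta and BMP family. None of these genes is specific to Leydig progenitors, since endothelial cells, pericytes, fibroblasts or blood cells express one or more of them. The cultures carried the defining markers of mature Leydig cells. Over 13 genes these summed to 9475 and 9848 CPM with Trps1 siRNA and 6728 and 7038 CPM with Negative siRNA. The sum does not describe each gene, since 8 were called higher and 5 were not called, against 5.24% of all tested genes called higher.

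The Ly6 genes of this set lie together on chromosome 15 of GRCm38, with Ly6e at 74955051 to 74959905 on the plus strand, Ly6a at 74994877 to 74998031 on the minus strand and Ly6c1 at 75044018 to 75048830 on the minus strand. Ly6c2, a close copy of Ly6c1, follows at 75108158 to 75111970. The first 60 coding bases of their main isoforms in GENCODE M21 are shown as an example of how alike these genes can be. This stretch does not stand for the whole coding sequence, whose identities are given below. Capitals mark the bases that differ from Ly6c1.
Ly6c1: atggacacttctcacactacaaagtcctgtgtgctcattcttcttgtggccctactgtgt
Ly6c2: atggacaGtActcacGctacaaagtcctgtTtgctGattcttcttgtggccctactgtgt
Ly6a: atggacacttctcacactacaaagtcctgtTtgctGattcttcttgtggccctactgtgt
Ly6e: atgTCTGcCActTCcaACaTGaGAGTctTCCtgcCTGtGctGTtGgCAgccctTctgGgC
Ly6a differed from Ly6c1 at 2 of these 60 bases, Ly6c2 at 5 and Ly6e at 31. Over the whole coding sequence Ly6c1 was 97.7% identical to Ly6c2, 81.8% to Ly6a and 49.7% to Ly6e. Of all 50-base words in the transcripts of Ly6c1, 32.8% also occurred in transcripts of another gene, and the share was 19% for Ly6a and 0 for Ly6e. With 100-base words it was 10.1% for Ly6c1 and 1.45% for Ly6a. No source used here gives the read length or the handling of reads that match several places, so the split of reads among Ly6a, Ly6c1 and Ly6c2 is uncertain. Thy1, Nes, Tcf21 and Eng shared no 50-base word with another gene, and Cd34 shared 0.447% of its words.

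With Trps1 siRNA, 3 of the 8 markers fell (Ly6a, Ly6c1 and Eng), Cd34 rose, and Ly6e, Tcf21, Nes and Thy1 did not pass the test (edgeR quasi-likelihood test, Benjamini-Hochberg adjusted p under 0.05 over all 14701 genes). Across all tested genes 11.2% were called, 5.24% higher and 6.00% lower. The changes were small, with log2 fold changes between -0.45 and 0.38 among the called markers. The median log2 fold change was -0.24 over the 8 markers and 0.00243 over all tested genes. In 7 of the 8 genes the samples of the 2 groups did not overlap, 5 of them lower and 2 higher with Trps1 siRNA, which was also so in 52.2% of all tested genes. Fewer cells that express a marker and less of its RNA per cell cannot be told apart in these samples.

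**Figure D1:**
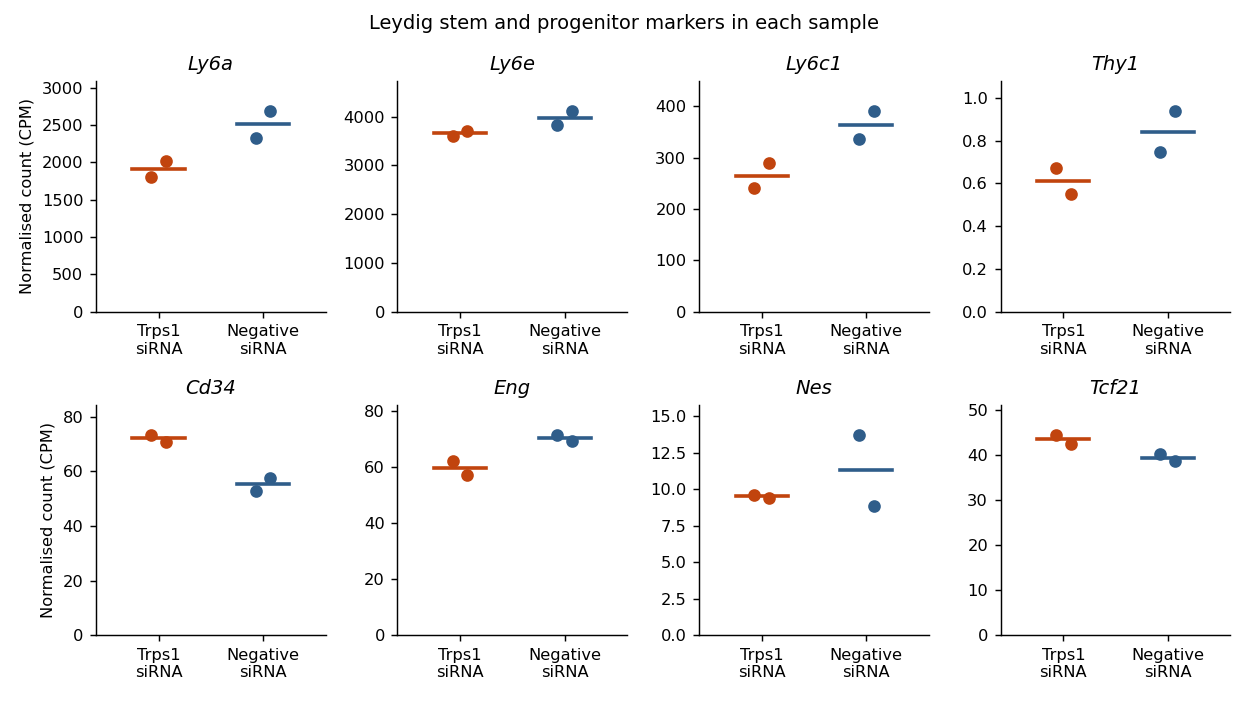
Normalised counts (CPM, linear axes from 0) of the 8 markers. Points are samples and bars are group means, with Trps1 siRNA on the left of each panel and Negative siRNA on the right; only in Nes do the groups overlap, since its Negative siRNA samples lie at 13.7 and 8.87 CPM on either side of the Trps1 siRNA samples.

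Among the Ly6 genes, Ly6a was the most abundant per length of annotated exon. The TPM scale divides counts by library and by the joined length of all annotated exons of a gene. On it Ly6a stood at 4655 and 5257 with Trps1 siRNA and at 6088 and 6835 with Negative siRNA. It had the rank of 9 among all tested genes in the Negative siRNA samples. As counts, Ly6a had 1806 and 2014 CPM with Trps1 siRNA and 2332 and 2688 CPM with Negative siRNA. Both Trps1 siRNA samples lay below both controls. Its log2 fold change was -0.39 ± 0.07, to 76.1% of the control mean (edgeR adjusted p = 3.74e-04), and the call held under all 12 alternatives tried.

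Ly6c1, which encodes a surface antigen of monocytes, endothelial cells and T cell subsets, fell by 0.45 ± 0.09 on the log2 scale (edgeR adjusted p = 0.00523). It had 241 and 290 CPM with Trps1 siRNA and 336 and 391 CPM with Negative siRNA, again with no overlap. DESeq2 gave nearly the same log2 fold change, -0.46, with an adjusted p of 0.0856, so this call was lost with that tool. With the reads of Ly6c1 and Ly6c2 summed the log2 fold change was -0.46 and the edgeR adjusted p 0.00254. Ly6c1 had 20.6 and 24.0 times the counts of Ly6c2 with Trps1 siRNA, and 20.5 and 20.8 times with Negative siRNA. The sum is thus nearly Ly6c1 alone, and it cannot show how reads were divided among Ly6c1, Ly6c2 and Ly6a. Ly6c2, not one of the 8 markers, had 11.7 and 12.1 CPM with Trps1 siRNA and 16.4 and 18.8 CPM with Negative siRNA (log2 fold change -0.57 ± 0.12, edgeR adjusted p = 0.00277). The call of Ly6c2 was lost without sample 2 of Negative siRNA (-0.46, edgeR adjusted p = 0.0527). The authors' deposited table lists Ly6c2 with a log2 fold change of -0.56 and an adjusted p of 0.0102, and does not list Ly6a, Ly6c1 or Ly6e.

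Ly6e had the highest count of the 8 markers, 3606 and 3704 CPM with Trps1 siRNA and 3820 and 4113 CPM with Negative siRNA. Its product affects the entry of several viruses and is found on many cell types. The groups did not overlap, but the log2 fold change of -0.12 ± 0.05 did not pass the test (edgeR adjusted p = 0.184), nor did it under any of 12 alternatives. Within each sample the ratio of Ly6a to Ly6e counts was 0.501 and 0.544 with Trps1 siRNA and 0.610 and 0.653 with Negative siRNA. That of Ly6c1 to Ly6e was 0.0668 and 0.0782 with Trps1 siRNA and 0.0880 and 0.0950 with Negative siRNA. Both ratios, which do not depend on library size, were lower in both Trps1 siRNA samples. The difference between the genes' fold changes was not tested. The ratio of Ly6a to Ly6c1 was 7.50 and 6.95 with Trps1 siRNA and 6.94 and 6.88 with Negative siRNA.

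Ly6a, Ly6c1, Ly6c2 and Ly6e also shared their order of samples. Each was lowest in sample 1 of Trps1 siRNA, followed by sample 2 of Trps1 siRNA, sample 1 of Negative siRNA and sample 2 of Negative siRNA, and so was Trps1 itself. This order was found in 5.39% of all tested genes, and in 20.6% of the 3839 genes that were lower in both Trps1 siRNA samples. Library totals had another order, with 17844125 and 21597187 counts for Trps1 siRNA and 20116799 and 25852898 for Negative siRNA. Relative to the control mean, sample 1 of Trps1 siRNA held 58.6% of Trps1, 71.9% of Ly6a and 66.2% of Ly6c1, and sample 2 held 75.1%, 80.3% and 79.7%.

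**Figure D2:**
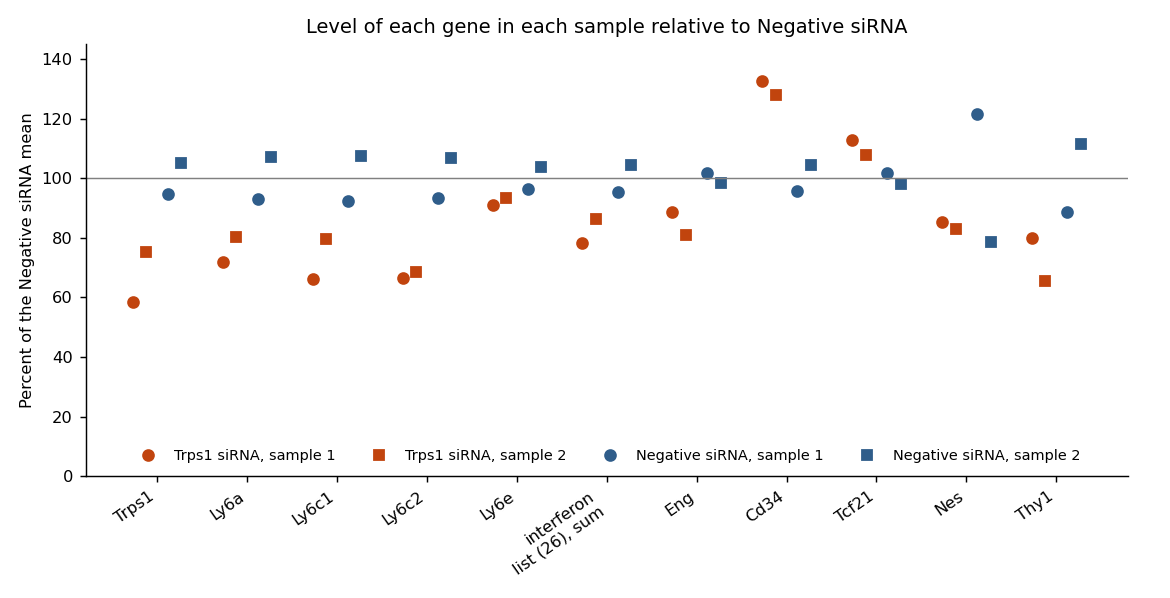
Level in each sample as a percentage of the Negative siRNA mean (linear axis from 0), for Trps1, the 8 markers, Ly6c2 and the summed CPM of 26 interferon-stimulated genes. Red marks are Trps1 siRNA and blue marks Negative siRNA, with circles for sample 1 and squares for sample 2; Ly6a, Ly6c1, Ly6c2 and Ly6e show the same order of samples as Trps1, whereas Cd34 lies at 133% and 128% in the Trps1 siRNA samples.

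The Ly6 genes are known to respond to interferon, and interferon-stimulated genes moved in the same samples. Of 26 tested, 15 fell and 11 did not pass the test, against 6.00% of all tested genes called lower. The median log2 fold change of the 26 was -0.29. Without sample 2 of Negative siRNA 9 fell. The list, which holds none of the 8 markers, summed to 4125 and 4547 CPM with Trps1 siRNA and 5033 and 5506 CPM with Negative siRNA, in the same order of samples as the Ly6 genes. Its members with the smallest p were Ddx58, a cytosolic RNA sensor, Cxcl10, a chemokine, and Ifit2 and Ifit3, antiviral proteins. Ddx58 fell to 121 and 134 CPM with Trps1 siRNA, against 207 and 221 CPM with Negative siRNA. The part of the interferon genes in the Ly6 results was not tested.

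By the distance between centred log2 values over the 4 samples, among 10762 other genes with at least 5 CPM, the genes nearest to Ly6a included Usp18 and Spopl, at distances of 0.0128 and 0.0468. Those nearest to Ly6c1 were Oas3, Cfap298 and Ifi203, at 0.0170 to 0.0580. With 4 samples such a pattern is loosely defined, and these distances are a description without a test.

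Of the wider family of 37 listed Ly6 and uPAR genes, which share the 3-finger fold of the Ly6 proteins, 35 were in the table and 15 were tested. Of these, Ly6a, Ly6c1 and Ly6c2 fell and 12 were not called, with 2 lower when sample 2 of Negative siRNA was left out. The family's median log2 fold change was -0.13. Of all tested genes 11.2% were called. Ly6d, a keratinocyte and lymphocyte antigen, had 144 and 165 CPM with Trps1 siRNA and 132 and 146 CPM with Negative siRNA (log2 fold change 0.16 ± 0.07, edgeR adjusted p = 0.136). Without sample 1 of Trps1 siRNA Ly6d was called higher (0.25, edgeR adjusted p = 0.0171). Lynx1, a modulator of nicotinic receptors, had 369 and 393 CPM with Trps1 siRNA and 414 and 420 CPM with Negative siRNA (log2 fold change -0.13 ± 0.06, edgeR adjusted p = 0.183). On chromosome 15 the family spans 74714839 to 75599481, where 13 of 50 listed genes were tested. There Ly6a, Ly6c1, Ly6c2 and Them6 fell and 9 did not pass the test. The fitted log2 fold change was below 0 in 10 of the 13, with a median of -0.13, against 0.00243 over all tested genes. These 10 include Ly6a, Ly6c1 and Ly6c2, whose reads may not be told apart, and Ly6k at -0.00181. Whether the region differed from other genes was not tested. Among the genes not called, the fitted log2 fold change ranged from -0.63 ± 0.22 in Cyp11b1, a steroid hydroxylase gene, to 0.28 ± 0.34 in D730001G18Rik. Cyp11b1 had 32.4 and 40.0 CPM with Trps1 siRNA and 46.7 and 65.5 CPM with Negative siRNA, with no overlap (edgeR adjusted p = 0.220).

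Thy1, the CD90 antigen of fibroblasts, thymocytes and spermatogonial stem cells, was hardly present. It had 12 and 12 reads with Trps1 siRNA and 15 and 24 reads with Negative siRNA, or 0.672 and 0.552 CPM against 0.746 and 0.938 CPM. The values were lower in both Trps1 siRNA samples, but at this depth the log2 fold change of -0.48 ± 0.49 could not be told from 0 (edgeR adjusted p = 0.614). The enzymes that build the lipid anchor of Thy1 and the Ly6 proteins were tested as a list of 26 genes, of which 2 fell, 1 rose and 23 were not called. Across all tested genes 11.2% were called. Pigs, a subunit of the complex that attaches the anchor, fell to 52.8 and 49.9 CPM with Trps1 siRNA, against 75.2 and 71.3 CPM with Negative siRNA (log2 fold change -0.51 ± 0.07, edgeR adjusted p = 1.43e-05). Dpm3 (-0.31) and Pigm (0.33) were the other called genes, and both calls were lost with DESeq2 and in some fits with 1 sample left out.

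Cd34 went the other way from the remaining called markers. It had 73.3 and 70.7 CPM with Trps1 siRNA and 52.9 and 57.6 CPM with Negative siRNA, so both Trps1 siRNA samples lay above both controls. The rise was 0.38 ± 0.07 on the log2 scale, or 1.30-fold (edgeR adjusted p = 5.54e-04), and it held under all 12 alternatives, with log2 fold changes from 0.32 to 0.44. The authors' deposited table lists Cd34, the only one of the 8 markers it holds, with 0.38 and an adjusted p of 0.00237. Cd34 (chromosome 1, 194938819 to 194961279, plus strand) shares 148 exon bases with Gm16897, an antisense gene too low to be tested, with 4 and 4 reads with Trps1 siRNA and 7 and 2 with Negative siRNA. The strand setting of the counting is unknown here. Its relatives Podxl and Podxl2, sialomucins of the same family, did not pass the test. Podxl2 had 96 and 87 reads with Trps1 siRNA and 123 and 125 reads with Negative siRNA (log2 fold change -0.23 ± 0.20). The genes nearest to Cd34 in pattern were Cenpj, Ggct and Abhd10, at distances of 0.00317 to 0.0419.

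Eng (chromosome 2, 32646595 to 32682669, plus strand) fell by 0.24 ± 0.07 on the log2 scale, with 62.3 and 57.1 CPM with Trps1 siRNA and 71.6 and 69.3 CPM with Negative siRNA (edgeR adjusted p = 0.0268). The groups did not overlap, but this was the least secure of the 4 calls. DESeq2 gave an adjusted p of 0.126, and the call was lost without sample 1 of Negative siRNA (adjusted p = 0.142), without sample 2 of Negative siRNA (0.0581) and without sample 2 of Trps1 siRNA (0.238). Eng shares 61 exon bases with Fpgs on the opposite strand, which had 15.3 and 14.1 CPM with Trps1 siRNA and 15.2 and 14.6 CPM with Negative siRNA. The ratio of Cd34 to Eng counts within a sample was 1.18 and 1.24 with Trps1 siRNA and 0.739 and 0.831 with Negative siRNA. The genes nearest to Eng in pattern were Cenpb, Tmem109 and Lor, at distances of 0.0169 to 0.0199.

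Of the partners, ligands and targets of endoglin, 24 were tested, Eng included. Of these 4 fell, 1 rose and 19 were not called, against 11.2% of all tested genes called. Tgfbr3, which encodes betaglycan, the co-receptor most like endoglin, rose to 526 and 568 CPM with Trps1 siRNA, against 398 and 380 CPM with Negative siRNA (log2 fold change 0.49 ± 0.06, edgeR adjusted p = 3.99e-06). The ligand Tgfb1 fell to 71.1 and 60.3 CPM with Trps1 siRNA, against 85.6 and 81.6 CPM with Negative siRNA (-0.35 ± 0.07), and the signalling receptor Tgfbr2 had a log2 fold change of -0.23 ± 0.07. The fourth gene that fell was Smad6, an inhibitor of BMP signalling (-0.27 ± 0.09). Without sample 2 of Trps1 siRNA 0 genes of the list were called lower (edgeR), without sample 1 of Trps1 siRNA 3, and without either Negative siRNA sample 2. The number called higher was 3 without sample 1 of Trps1 siRNA, 2 without either Negative siRNA sample and 1 without sample 2 of Trps1 siRNA. DESeq2 called 1 lower and limma voom 3, and 8 of the 24 had an unadjusted p under 0.05. Acvrl1, the receptor that endoglin assists in endothelial cells, had 37.8 and 37.1 CPM with Trps1 siRNA and 42.8 and 40.9 CPM with Negative siRNA, a log2 fold change of -0.16 ± 0.08 that did not pass the test.

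Nes (chromosome 3, 87971078 to 87980451, plus strand) had 9.63 and 9.39 CPM with Trps1 siRNA and 13.7 and 8.87 CPM with Negative siRNA. The Trps1 siRNA samples lay between the controls, which differed from each other more than the groups did. The log2 fold change of -0.24 ± 0.17 did not pass the test (edgeR adjusted p = 0.442). It was 0.10 without sample 1 of Negative siRNA and -0.53 without sample 2 (edgeR adjusted p = 0.853 and 0.0357), so 1 control decided its direction. Of the intermediate filament and lamin genes 7 were tested, Nes included, and 5 were not called, against 11.2% of all tested genes called. The lamin gene Lmnb1 rose (0.25 ± 0.07) and Lmna fell (-0.19 ± 0.06), and both calls were lost with DESeq2 and in some fits with 1 sample left out. Vim, the main filament of mesenchymal cells, had 1322 and 1293 CPM with Trps1 siRNA and 1475 and 1471 CPM with Negative siRNA (-0.17 ± 0.06, edgeR adjusted p = 0.0550). In this list DESeq2 called 1 gene lower and the replicate block 2. Des, a filament of muscle and pericytes with which nestin assembles, had 6.95 and 7.09 CPM with Trps1 siRNA and 9.15 and 7.81 CPM with Negative siRNA, and did not pass the test.

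Tcf21, on the minus strand of chromosome 10 (22817281 to 22820174), had 44.5 and 42.5 CPM with Trps1 siRNA and 40.2 and 38.7 CPM with Negative siRNA. Both Trps1 siRNA samples were above both controls, but the log2 fold change of 0.14 ± 0.08 did not pass the test (edgeR adjusted p = 0.289), nor did it under the 12 alternatives, which gave 0.11 to 0.17. Of its partners and relatives 8 were tested with Tcf21 counted in, and Tcf3, which encodes the E proteins that pair with Tcf21, rose to 85.9 and 83.5 CPM with Trps1 siRNA, against 70.2 and 70.2 CPM with Negative siRNA (log2 fold change 0.27 ± 0.06, edgeR adjusted p = 0.00569). The other 7 did not pass the test. Of all tested genes 11.2% were called.

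Ordered by TPM in the Negative siRNA samples the markers ran Ly6a, Ly6e, Ly6c1, Eng, Tcf21, Cd34, Nes and Thy1. Every sample of each gene lay above every sample of the next, except for Eng and Tcf21. This order depends on the lengths used, which join the exons of all annotated isoforms. They were 1205 bases for Ly6a, 3784 for Ly6e, 2349 for Tcf21 and 7290 for Cd34. By CPM, without length, Ly6e lay above Ly6a and Cd34 above Tcf21 in every sample. Eng had 47.8 and 44.4 TPM with Trps1 siRNA and 55.6 and 52.4 TPM with Negative siRNA, and Tcf21 had 58.9 and 56.9 TPM with Trps1 siRNA and 53.8 and 50.5 TPM with Negative siRNA. From Ly6a to Thy1 the means in Trps1 siRNA samples ran from 4956 to 0.638 TPM, and in Negative siRNA samples from 6462 to 0.872 TPM.

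**Figure D3:**
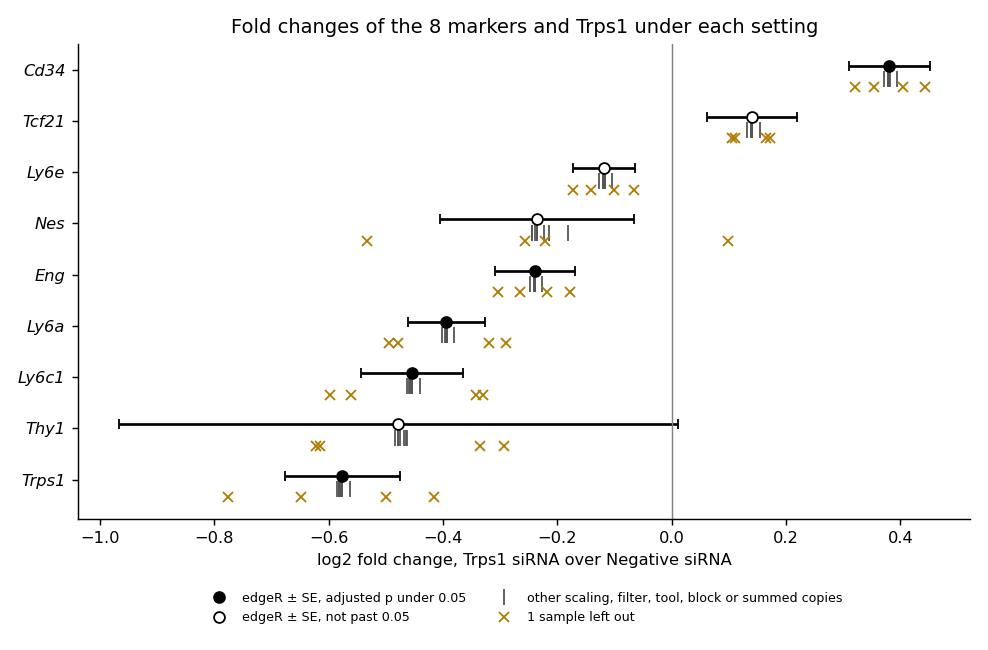
Log2 fold change (Trps1 siRNA over Negative siRNA) of the 8 markers and Trps1. Circles with bars are edgeR values ± standard error, filled where the adjusted p was under 0.05; ticks are other settings and crosses are fits with 1 sample left out, which move Nes from -0.53 to 0.10 but leave Cd34 above 0 and Ly6a, Ly6c1 and Eng below 0.

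The promoters of Cd34 and Tcf21, the markers with values higher in both Trps1 siRNA samples, and of Ly6c1 and Eng, which fell, are shown because Trps1 binds GATA sites. The windows hold 250 bases before the start site and 50 from it, and come from RefSeq for GRCm38.p6. Capitals mark a match on either strand to a GATA site, searched as AGATAA or TGATAA and as AGATAG or TGATAG.
Cd34 (chr1:194938571-194938870, plus strand): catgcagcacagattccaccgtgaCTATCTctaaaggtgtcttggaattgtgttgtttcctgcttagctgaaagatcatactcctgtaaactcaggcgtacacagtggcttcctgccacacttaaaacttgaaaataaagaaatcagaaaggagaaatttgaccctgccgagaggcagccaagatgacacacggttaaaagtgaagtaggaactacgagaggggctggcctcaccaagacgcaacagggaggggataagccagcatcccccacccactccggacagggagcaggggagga
Tcf21 (chr10:22820094-22820393, minus strand): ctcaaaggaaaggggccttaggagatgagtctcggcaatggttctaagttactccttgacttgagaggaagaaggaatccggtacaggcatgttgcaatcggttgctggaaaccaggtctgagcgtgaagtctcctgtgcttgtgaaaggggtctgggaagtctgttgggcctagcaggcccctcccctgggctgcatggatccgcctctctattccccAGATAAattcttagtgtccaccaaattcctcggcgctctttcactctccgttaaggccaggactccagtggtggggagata
Ly6c1 (chr15:75048788-75049087, minus strand): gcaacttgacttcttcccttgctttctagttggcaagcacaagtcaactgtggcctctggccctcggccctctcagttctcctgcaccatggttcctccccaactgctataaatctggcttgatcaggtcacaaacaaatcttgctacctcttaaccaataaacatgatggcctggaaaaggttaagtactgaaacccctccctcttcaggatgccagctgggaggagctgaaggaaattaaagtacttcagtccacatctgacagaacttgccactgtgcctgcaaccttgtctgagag
Eng (chr2:32646345-32646644, plus strand): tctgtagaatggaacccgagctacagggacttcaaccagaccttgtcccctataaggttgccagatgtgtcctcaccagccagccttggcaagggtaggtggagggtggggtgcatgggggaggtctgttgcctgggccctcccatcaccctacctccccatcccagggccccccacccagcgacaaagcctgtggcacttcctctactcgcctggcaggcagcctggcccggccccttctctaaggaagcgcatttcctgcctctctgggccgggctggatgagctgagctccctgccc
A window was found for 5 of the 8 markers and for Ly6c2. Ly6a, Ly6e and Thy1 had none, so their promoters were not searched. Where a gene had 2 windows, the one nearest its annotated start is shown. Cd34 held a match 226 to 221 bases before its start site, on the minus strand, and Tcf21 one 31 to 26 bases before its own. The windows of Ly6c1, Eng, Nes and Ly6c2 held none, which says only that these letters are not in them. Of all 32851 windows of this length 29.8% held at least 1 match. The bases GAAANNGAA, the core bound by interferon regulatory factors, were also searched on both strands. They were in none of the 6 windows, against 8.56% of all. With so few windows and so low a share, finding none says little.

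Other genes used to mark stem and progenitor cells of the Leydig lineage were mostly not called, as were all tested genes, of which 11.2% were called. Of 25 tested, 2 rose and 22 were not called, with a median log2 fold change of 0.03. Nt5e, the ecto-nucleotidase CD73 of mesenchymal stem cells, rose to 275 and 302 CPM with Trps1 siRNA, against 218 and 219 CPM with Negative siRNA (log2 fold change 0.40 ± 0.06, edgeR adjusted p = 5.00e-05), and was called under every alternative. Ngfr, the nerve growth factor receptor of neural crest cells, rose by 1.30 ± 0.42 from few reads, 23 and 42 with Trps1 siRNA and 15 and 15 with Negative siRNA, and lost its call without any 1 of the 4 samples. Pdgfra and Nr2f2, widely used interstitial progenitor markers, had log2 fold changes of -0.15 ± 0.06 and -0.15 ± 0.06 and did not pass the test (edgeR adjusted p = 0.120 and 0.133).

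**Figure D4:**
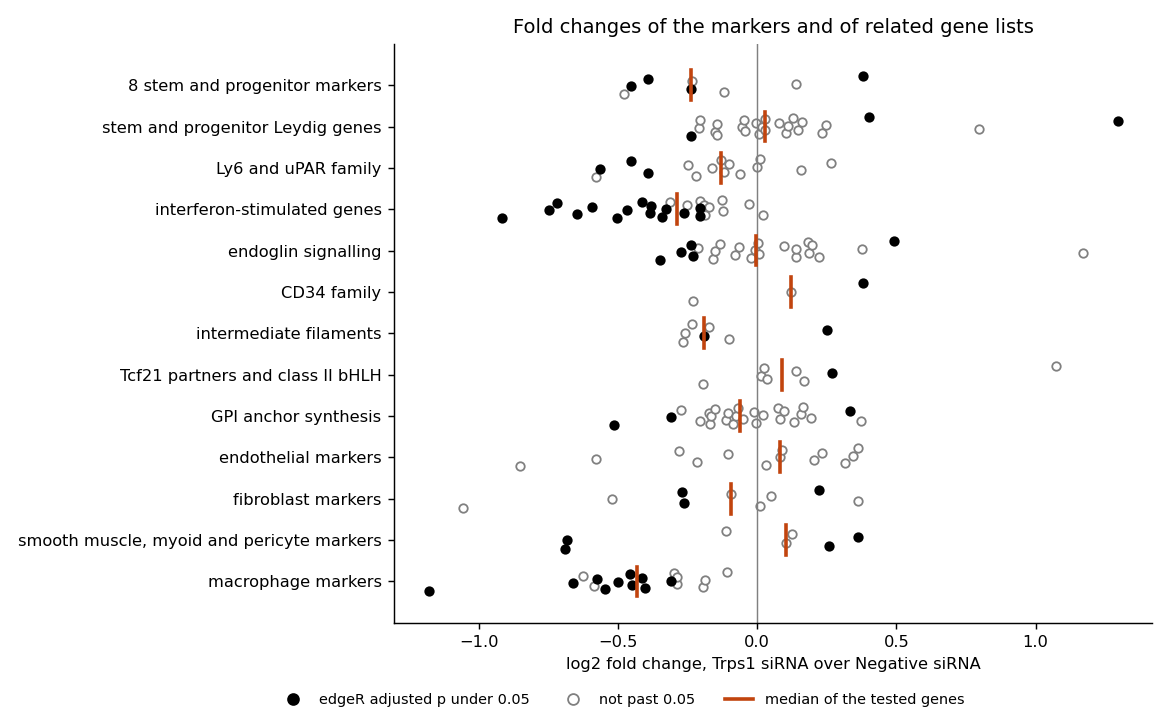
Log2 fold changes (Trps1 siRNA over Negative siRNA) of the tested genes of the 8 markers and of 12 related gene lists, 1 circle per gene, filled where the edgeR adjusted p was under 0.05, with red bars at each median. Interferon-stimulated genes and macrophage markers lie mostly below 0, with medians of -0.29 and -0.43, while other stem and progenitor genes have a median of 0.03.

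Markers of other cells that express these genes were present in unequal amounts. Of 14 endothelial markers 13 were tested, and edgeR, DESeq2 and limma voom each called 0, with 1 at an unadjusted p under 0.05 in edgeR (Tie1, log2 fold change -0.85 ± 0.36). Without sample 2 of Negative siRNA edgeR called 1 lower. They summed to only 55.2 and 52.4 CPM with Trps1 siRNA and 60.3 and 48.5 CPM with Negative siRNA, and none was at 0 in all samples. Beside the fall of Ly6a, Ly6c1 and Eng, 10 of 18 macrophage markers were lower and 8 not called. Of all tested genes 6.00% were called lower. The macrophage markers summed to 2856 and 2255 CPM with Trps1 siRNA and 3373 and 3298 CPM with Negative siRNA. Without sample 1 of Trps1 siRNA 17 were lower. Sample 2 of Trps1 siRNA held the fewest macrophage counts and sample 1 the lowest Ly6a and Ly6c1. Eng had the same order of samples as the macrophage sum, in the Negative siRNA group as well. The share of all genes with that order was not counted. No macrophage marker was at 0 in all samples. The part of macrophages in these results was not tested.

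Fibroblast markers summed to 4838 and 4775 CPM with Trps1 siRNA and 4812 and 4801 CPM with Negative siRNA. Of 9 genes, Dcn and Col1a2 fell and Col3a1 rose, and 6 were not called. For this list and those below, 11.2% of all tested genes were called. The call of Col3a1 was lost without either Negative siRNA sample. Smooth muscle, myoid and pericyte markers summed to 229 and 245 CPM with Trps1 siRNA and 227 and 243 CPM with Negative siRNA. Of 7 tested, Myl9 and Acta2, contractile proteins, fell, Abcc9 and Mylk rose, and 3 were not called. Without any 1 of 3 samples, all but sample 2 of Negative siRNA, 1 gene was called higher. Lymphocyte markers, relevant to Thy1 and Ly6c1, summed to 5.49 and 4.37 CPM with Trps1 siRNA and 6.42 and 5.47 CPM with Negative siRNA, and 2 of 8 had enough reads to be tested. Sertoli markers summed to 127 and 128 CPM with Trps1 siRNA and 120 and 117 CPM with Negative siRNA. Fshr was at 0 in all samples, and 1 of 4 tested genes was higher. Among the fits with 1 sample left out, this call was kept only without sample 2 of Negative siRNA, and DESeq2 lost it too. Most of the Sertoli sum was Amhr2, with 88.6 and 91.5 CPM with Trps1 siRNA and 87.6 and 83.2 CPM with Negative siRNA. Germ cell markers summed to 147 and 160 CPM with Trps1 siRNA and 123 and 118 CPM with Negative siRNA. Most of this was Kit, with 106 and 108 CPM with Trps1 siRNA and 83.9 and 81.6 CPM with Negative siRNA. Sums that rest mostly on 1 gene do not measure how many of these cells were present. Gfra1 and Tnp1 were at 0 in all samples, and 2 of 4 tested germ cell genes, Kit and Zbtb16, were higher. That count was 1 without sample 2 of Negative siRNA, without sample 2 of Trps1 siRNA, with DESeq2 and with limma voom.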

How the data were processed

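RNA sequencing counts of 2 Trps1 siRNA and 2 Negative siRNA samples were used. The authors deposited raw read counts per gene, made with HISAT2 and featureCounts on GRCm38 (mm10) per the submitters' processing notes, with no versions. How strand and multi-mapped reads were handled is not given in the sources used. A second table deposited by the authors holds 780 genes, with a mean normalised signal per group, a log2 fold change and an adjusted p-value; its test is not given, and of these genes 776 were called here. Symbols, positions and exon lengths came from GENCODE M21, which gave a symbol to 55141 of 55812 features; 411 features carried no Ensembl identifier.

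Library totals were 17844125 to 25852898 counts, which limits the precision of genes with few reads. Replicates differed by more than sampling noise, with a mean chi-square of 4.61 per gene between Trps1 siRNA samples and 7.60 between Negative siRNA samples. The test was edgeR 4.0.16 (R 4.3.3), with TMM factors, filterByExpr (minimum count 10), robust glmQLFit and glmQLFTest, with group alone in the design and 2 residual degrees of freedom. Benjamini-Hochberg adjustment ran over all 14701 genes, with a threshold of 0.05. A standard error is the log2 fold change divided by the root of F. The fit was tested on simulated data. CPM used TMM-scaled libraries. Alternatives were RLE factors, library totals, no filter, only genes averaging 5 CPM or more, limma 3.58.1 with voom, DESeq2 1.42.0, no robust estimation, the replicate block, each sample left out, and Ly6c1 with Ly6c2 summed.

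Named genes were the 8 markers, Trps1, up to 4 genes per list with the smallest p, and the 3 nearest in pattern to each called marker by Euclidean distance of log2 CPM with a prior count of 3. Lynx1, Cyp11b1, D730001G18Rik, Them6, Pdgfra, Nr2f2, Acvrl1, Smad6, Fpgs and Gm16897 were named in addition, after their values were seen. Coding identity used the APPRIS principal isoforms, a choice made after the longest coding sequences had given a lower identity of Ly6c1 to Ly6c2. A further 2 motifs (CAGCTG and CACCC) were searched once the promoter windows had been seen, and are not reported. Of the genes this rule gives, 2 are not reported here. The markers and lists were chosen with earlier results of these data known.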

Additional observations from a re-analysis of the deposited data

How the results depend on the processing

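Ly6a and Cd34 kept their direction and call under all 12 alternatives, Ly6c1 under 12 of 13 and Eng under 8 of 12. DESeq2 called 2 of the markers (Ly6a and Cd34), against 4 with edgeR, and 914 genes in all (403 higher and 511 lower), against 1652 (770 higher and 882 lower). Leaving out single samples gave 3 to 4 called markers and 871 to 1675 called genes (395 to 748 higher and 476 to 927 lower), with the lowest counts without sample 2 of Trps1 siRNA, and log2 fold changes of Trps1 from -0.78 to -0.42. Directions were followed for only 65 genes, namely the markers, Trps1, Ly6c2 and up to 4 genes of each list. Leaving out single samples reversed the direction of 4 of these 65, none called with all samples. Nes ranged from -0.53 to 0.0979 (reversed without Negative siRNA sample 1). Podxl ranged from -0.13 (without Negative siRNA sample 2) to 0.38, and was -0.0572 without Trps1 siRNA sample 1. Dazl ranged from -0.0369 (without Trps1 siRNA sample 2) to 1.06. Lck ranged from -0.20 (without Negative siRNA sample 2) to 0.24, and was -2.00e-04 without Trps1 siRNA sample 2. The cause was not tested. The labels do not say whether the replicate numbers pair samples. Same-numbered samples deviated together with a correlation of 0.0165 across genes, which cannot decide whether a part of the genes varied by pair. With the replicate block 2285 genes and the same number of markers, 4, were called, and Ly6e had an adjusted p of 0.0571. The block also called Ly6d higher (adjusted p = 0.0307) and 4 genes of the endoglin list higher, against 1. Thy1, with 12 to 24 reads per sample, is limited by depth, and in DESeq2 its adjusted p was not given.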
